A study of Mus musculus with 6 samples.

Results

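The insulin-like growth factor (IGF) system was followed through 10 genes, which were taken from the count tables by symbol: the ligands Igf1 and Igf2, the receptors Igf1r and Igf2r, and the binding proteins Igfbp2, Igfbp3, Igfbp4, Igfbp5, Igfbp6 and Igfbp7. They are 10 of 46603 genes in the tables, and all 10 had enough counts to be tested, among 15226 tested genes in all. The cells were enteric glial cells (EGCs), which support the neurons of the intestine, grown from neurospheres (floating clusters of neural progenitors) of whole intestine from C57BL/6J mouse embryos (E14.5). Controls were 3 untreated cultures, and the other 3 cultures received lipopolysaccharide (LPS), a component of the bacterial cell wall, at 100 ng/ml for 12 h. The study profiled such cultures as part of its work on how EGCs and monocytes interact. No sorting step is named for the cells, the labels do not say whether cultures came from separate litters, and p-values below therefore measure only the spread between these 6 libraries, which may be technical.

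IGF1 and IGF2 are secreted peptides related to insulin. They bind the receptor tyrosine kinase IGF1R, which signals through IRS adaptors, PI3K and AKT to promote growth and survival, whereas IGF2R takes up IGF2 for degradation in lysosomes and also sorts lysosomal enzymes that carry mannose 6-phosphate. Most IGF outside the cell is held by IGF binding proteins (IGFBPs), which limit access to the receptor, and proteases such as PAPP-A cut some of these carriers and free the ligand. Igf2 is an imprinted gene with high activity in embryonic mesoderm, and Igf1 is made by many stromal cells and by macrophages.

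The libraries held between 18775316 and 23664312 counts. Levels are given as CPM, counts scaled to 1e+06 per library after correction by its TMM factor (0.9175 to 1.081), and 3 counts, used as the detection floor, corresponded to 0.124 to 0.167 CPM. Markers of more than glia were present: the summed level of 8 glial markers was 626 to 846 CPM in controls and 655 to 689 CPM in LPS cultures, that of 8 mesenchymal markers was 13300 to 14510 and 13500 to 14380 CPM, and that of 12 macrophage markers was 3862 to 11500 and 3901 to 18900 CPM, with Cd163 at the floor in all 6 libraries. Among the glial markers, Sox10 was at 100.7, 89.5 and 73.8 CPM in controls and at 76.8, 78.2 and 76.0 CPM in LPS cultures, and was not called. S100b was called lower (22.2 ± 2.20 to 5.92 ± 3.08 CPM) and Fabp7 higher (2.55 ± 0.256 to 6.27 ± 1.05 CPM). Gfap was low in both groups (4.19 ± 1.29 and 4.07 ± 2.74 CPM). All 5 epithelial markers were too low to test. A set of 6 genes known to respond to LPS was called higher throughout (6 of 6). Their summed level was 60.2, 59.5 and 56.0 CPM in controls and 5090, 5833 and 2051 CPM in LPS cultures 1, 2 and 3. The response was thus weakest in LPS culture 3. Replicate 3 stood apart in both groups, with macrophage marker sums of 11500 CPM in the control and 18900 CPM in the LPS culture against 3862 to 5058 CPM in the other 4 libraries. In such mixed cultures, fewer cells of a type and less RNA per cell cannot be told apart in any value below.

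In LPS cultures 2 of the 10 IGF genes were lower, Igf1 and Igfbp6, and 1 was higher, Igfbp7, at an adjusted p under 0.05 in the edgeR quasi-likelihood test. Of all tested genes, 6.71% were called lower and 9.09% higher. The groups did not overlap, with every LPS library below every control, for 4 genes (Igf1, Igf2r, Igfbp2 and Igfbp6) against 19.4% of all tested genes, and every LPS library lay above every control for Igfbp7 alone, against 19.3% of all tested genes. Same-numbered control and LPS libraries deviated together across genes, but numbers 1 and 2 were not told apart and number 3 alone stood out. The pairing by number was thus taken from these data and is not given by the labels. With the replicate number as a block 5 members were called lower (Igf1, Igf2, Igf1r, Igf2r and Igfbp6) and Igfbp7 higher. That fit called 14.9% of all genes lower and 15.4% higher. The median log2 fold change (LPS minus control) was -0.535 over the 10 members and -0.02 over all tested genes. Between libraries of the same number, 6 members were lower in LPS in every pair (34.6% of all tested genes), 1 was higher in every pair (31.0%) and 3 had mixed directions.

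**Figure D1:**
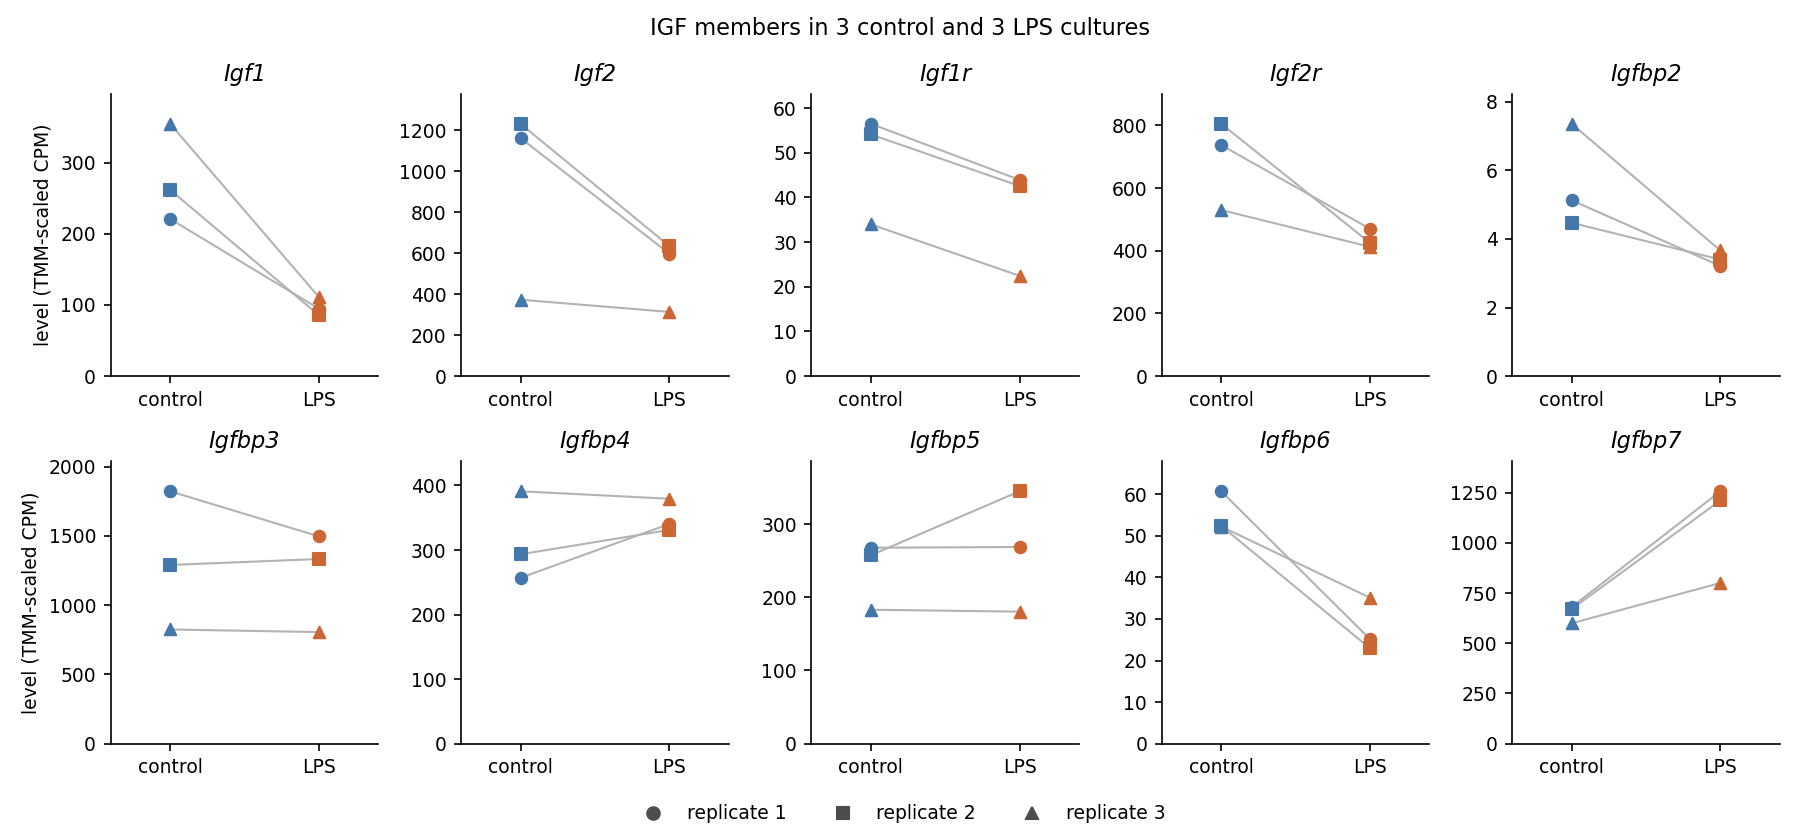
Level of each IGF gene in CPM (linear axes from 0, scaled per gene) in 3 control (blue) and 3 LPS libraries (orange), with grey lines between libraries of the same replicate number. Igf1, Igf2r, Igfbp2 and Igfbp6 lie lower in all LPS libraries than in any control and Igfbp7 lies higher. The triangles of replicate 3 are the lowest of each group for Igf2, Igf1r, Igf2r, Igfbp3, Igfbp5 and Igfbp7.

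The promoter windows of the 3 called genes differ in sequence. They are given here at 300 bases (250 before and 50 after the start, RefSeq, GRCm38.p6), written 5′ to 3′ on the gene's strand: Igf1 at chr10:87860861-87861160 (+), Igfbp6 at chr15:102143936-102144235 (+) and Igfbp7 at chr5:77407996-77408295 (-). RefSeq starts need not match the GENCODE gene intervals given for the genes: the Igfbp6 window lies wholly upstream of its interval, and the Igf1 window lies inside its own, which holds 8 transcripts. Capitals mark matches on either strand to the motifs searched, with the share of all RefSeq windows that hold each. These were the TATA box TATAAA (13.6%), the GC box GGGCGG (35.7%), the STAT site TTCNNNGAA (8.3%), the interferon-response core GAAANNGAA (8.56%), the cAMP-response element TGACGTCA (1.79%), the C/EBP site TTGCNNAA (10.8%) and, by name, the NF-kB consensus (8.46%).
Igf1: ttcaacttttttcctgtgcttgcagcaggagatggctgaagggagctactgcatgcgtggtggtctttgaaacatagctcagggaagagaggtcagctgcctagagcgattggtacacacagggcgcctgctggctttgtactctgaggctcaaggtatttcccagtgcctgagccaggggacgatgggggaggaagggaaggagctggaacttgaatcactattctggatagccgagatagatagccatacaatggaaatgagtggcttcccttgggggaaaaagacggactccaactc
Igfbp6: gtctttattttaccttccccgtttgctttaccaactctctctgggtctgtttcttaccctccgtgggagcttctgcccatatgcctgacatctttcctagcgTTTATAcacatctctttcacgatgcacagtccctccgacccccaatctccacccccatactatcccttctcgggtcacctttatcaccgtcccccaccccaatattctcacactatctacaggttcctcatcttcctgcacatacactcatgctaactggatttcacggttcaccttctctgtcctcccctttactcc
Igfbp7: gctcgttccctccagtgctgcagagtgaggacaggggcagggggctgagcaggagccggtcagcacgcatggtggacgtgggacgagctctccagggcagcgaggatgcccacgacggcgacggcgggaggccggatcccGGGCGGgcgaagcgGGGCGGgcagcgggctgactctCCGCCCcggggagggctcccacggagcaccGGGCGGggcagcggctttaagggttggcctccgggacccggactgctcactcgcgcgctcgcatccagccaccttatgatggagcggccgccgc

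The Igfbp7 window is rich in CpG dinucleotides, with 33 against a median of 7 over 32851 RefSeq windows (percentile 92.3), and holds 4 matches to the GC box letters GGGCGG. The Igf1 window holds 6 CpG and no match to any of the letters searched. The Igfbp6 window holds 8 CpG and 1 match to TATAAA, on the reverse strand. Of the remaining members, Igfbp5 has 2 overlapping matches to the NF-kB consensus, Igfbp4 has 1 TATA box, GC boxes occur in windows of Igf2, Igf1r (2), Igf2r (3) and Igfbp2 (3), 1 of the 4 Igf2 windows has an interferon-response core, and the Igfbp3 window has no match. These matches describe the letters of the windows, and no binding was measured here.

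Among the ligands, Igf1 fell in LPS cultures. It lies on chr10:87858265-87937042 (+, GRCm38) and encodes a growth factor that acts on neighbouring cells as well as through the circulation. Control cultures 1, 2 and 3 held 221, 262 and 355 CPM, and LPS cultures 1, 2 and 3 held 94.8, 85.7 and 111 CPM. Every control lay above every LPS value, and replicate 3 was the highest in each group. The means were 279 ± 68.5 and 97.3 ± 12.96 CPM (SD, n = 3), 2.87-fold lower with LPS, with a log2 fold change of -1.52 (SE 0.20, 95% interval -2.02 to -1.03, adjusted p = 0.00849). Igf1 passed the test in all 15 other settings tried, with adjusted p between 4.65e-09 and 0.0479.

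Igf2, the ligand at the imprinted locus of distal chromosome 7 (chr7:142650766-142666816, -), was the more abundant ligand and the more variable. Controls held 1162, 1232 and 373 CPM, and LPS cultures held 598, 636 and 314 CPM. Within each number the LPS culture was lower, but control 3 lay below LPS cultures 1 and 2, so the groups overlapped. The means were 922 ± 477 and 516 ± 176 CPM, and the difference of -0.84 (SE 0.50, interval -2.07 to 0.40) did not pass (adjusted p = 0.31). With the replicate number as a block it was -0.72 and passed (adjusted p = 0.0368). Leaving out both libraries of number 3, an alternative chosen after seeing the data, gave -0.93 (adjusted p = 5.13e-05). Part of Igf2's exons is shared with Igf2os on the other strand (98 of 5723 bp, with counts at most 0.222% of those of Igf2). A further part is shared with the same-strand predicted gene Gm49394 (3596 bp). The deposited counts hold no value for Gm49394, so its part in the Igf2 counts could not be examined.

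H19, the imprinted noncoding RNA that lies 72.6 kb from Igf2 and shares its enhancers, was at 1808, 1820 and 540.1 CPM in controls and at 412.4, 467.6 and 426 CPM in LPS cultures. Control 3 was the low value of its group, as it was for Igf2, and the difference of -1.67 did not pass (adjusted p = 0.0604, or 0.0519 with the block).

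Both receptors were lower in every LPS culture than in the control of the same number, without passing the test between groups. Igf1r, the signalling receptor (chr7:67952827-68233668, +), held 56.5, 54.1 and 33.97 CPM in controls and 43.9, 42.6 and 22.5 CPM in LPS cultures. Replicate 3 was the lowest in each group and the groups overlapped. The means were 48.2 ± 12.4 and 36.3 ± 12.0 CPM, with a difference of -0.41 (SE 0.32, interval -1.18 to 0.37, adjusted p = 0.427). With the block the difference was -0.43 and passed (adjusted p = 0.0207), and without number 3 it was -0.33 (adjusted p = 0.00743).

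Igf2r, the clearance and sorting receptor (chr17:12682406-12769664, -), held 737, 805 and 529.9 CPM in controls and 470.3, 425 and 413 CPM in LPS cultures. All LPS values lay below all controls, and the LPS cultures were close together. The means were 691 ± 143 and 436 ± 30.3 CPM, and the difference of -0.66 (SE 0.17, interval -1.08 to -0.25) missed the threshold (adjusted p = 0.0509). It was -0.64 with the block (adjusted p = 0.0226). Igf2r was called in 7 of 15 other settings, among them without control replicate 3 (adjusted p = 0.0119), and the adjusted p reached 0.171 without control replicate 2.

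The binding proteins did not move as a group. Igfbp7 was higher, Igfbp6 was lower, Igfbp2 did not overlap between groups without passing, and Igfbp3, Igfbp4 and Igfbp5 had intervals that include 0.

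Igfbp7 encodes a secreted protein of the extracellular matrix that binds IGFs weakly compared with the other carriers (chr5:77349240-77408041, -). Controls held 680.3, 670.4 and 599 CPM, and LPS cultures held 1257, 1211 and 800.4 CPM. LPS cultures 1 and 2 were close to each other, and LPS culture 3, the lowest of its group, still lay above every control. The means rose from 650.0 ± 44.1 to 1089 ± 251 CPM, 1.68-fold, with a log2 fold change of 0.75 (SE 0.19, interval 0.28 to 1.21, adjusted p = 0.0494). The call sat at the threshold. It held in 5 of 15 other settings, and it was lost without control replicates 1, 2 or 3 (adjusted p = 0.136, 0.159 and 0.104) and without LPS replicates 1 or 2 (adjusted p = 0.14 and 0.162). It held without LPS replicate 3 (adjusted p = 0.00275) and with the block (adjusted p = 0.0158). Polr2b on the opposite strand shares 85 of the 1209 exon bases of Igfbp7, and its counts were 5.96 to 13.8% of those of Igfbp7.

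Igfbp6, a carrier that prefers IGF2 over IGF1 (chr15:102144362-102149511, +), changed in the other direction. Controls held 60.7, 52.4 and 52.2 CPM, and LPS cultures held 25.2, 23.0 and 35.1 CPM. The gap between the groups was larger than the range within either, and LPS culture 3 was the highest of its group. The means were 55.1 ± 4.86 and 27.7 ± 6.48 CPM, 1.99-fold lower, with a log2 fold change of -0.99 (SE 0.18, interval -1.43 to -0.55, adjusted p = 0.02). The call held in 11 of 15 other settings and was lost without control replicates 1 or 2 (adjusted p = 0.0812 each) and without LPS replicates 1 or 2 (adjusted p = 0.0766 and 0.0732).

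Igfbp2, a carrier prominent in the fetus and nervous system (chr1:72824503-72852474, +), was the rarest member by CPM. Controls held 5.13, 4.47 and 7.36 CPM, from 121, 101 and 178 counts, and LPS cultures held 3.21, 3.40 and 3.66 CPM, from 65, 61 and 70 counts. Each LPS value was below each control. The means were 5.65 ± 1.51 and 3.43 ± 0.227 CPM, and the difference of -0.72 (SE 0.23, interval -1.29 to -0.16) did not pass (adjusted p = 0.0899, or 0.0505 with the block).

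Its neighbour Igfbp5, a carrier that binds matrix and bone mineral, lies on the other strand with its 3′ end 5.5 kb from that of Igfbp2 (chr1:72857932-72874884, -). Controls held 268, 257 and 183 CPM and LPS cultures held 269, 345 and 180.4 CPM. The pairs of numbers 1 and 3 were nearly level, and only LPS culture 2 stood above its control. The means were 236 ± 46.2 and 265 ± 82.3 CPM (log2 fold change 0.17, SE 0.27, interval -0.49 to 0.82, adjusted p = 0.72), and the difference was -0.07 without LPS replicate 2.

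Igfbp3, the main carrier of IGFs in blood, lies 3.5 kb from Igfbp1 (chr11:7206086-7213923, -). Controls held 1822, 1290.4 and 825 CPM and LPS cultures held 1497, 1333 and 806 CPM. Replicate 1 was the highest and replicate 3 the lowest in each group, and the spread within a group was far larger than the shift between groups. The means were 1312 ± 499 and 1212 ± 361 CPM, with a difference of -0.11 (SE 0.35, interval -0.98 to 0.75, adjusted p = 0.858). With the block the interval of the difference was -0.32 to 0.14. The difference turned positive without control replicate 1 (0.21) and without LPS replicate 3 (0.11).

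Igfbp4, a carrier that inhibits IGF action and is a substrate of PAPP-A (chr11:99041244-99054392, +), held 257, 293 and 391 CPM in controls and 340.2, 331 and 379 CPM in LPS cultures. Cultures 1 and 2 were higher with LPS and culture 3 was not. The means were 314 ± 69.3 and 350.2 ± 25.7 CPM (log2 fold change 0.16, SE 0.17, interval -0.26 to 0.57, adjusted p = 0.569). Without number 3 the difference was 0.31 (adjusted p = 0.014).

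**Figure D2:**
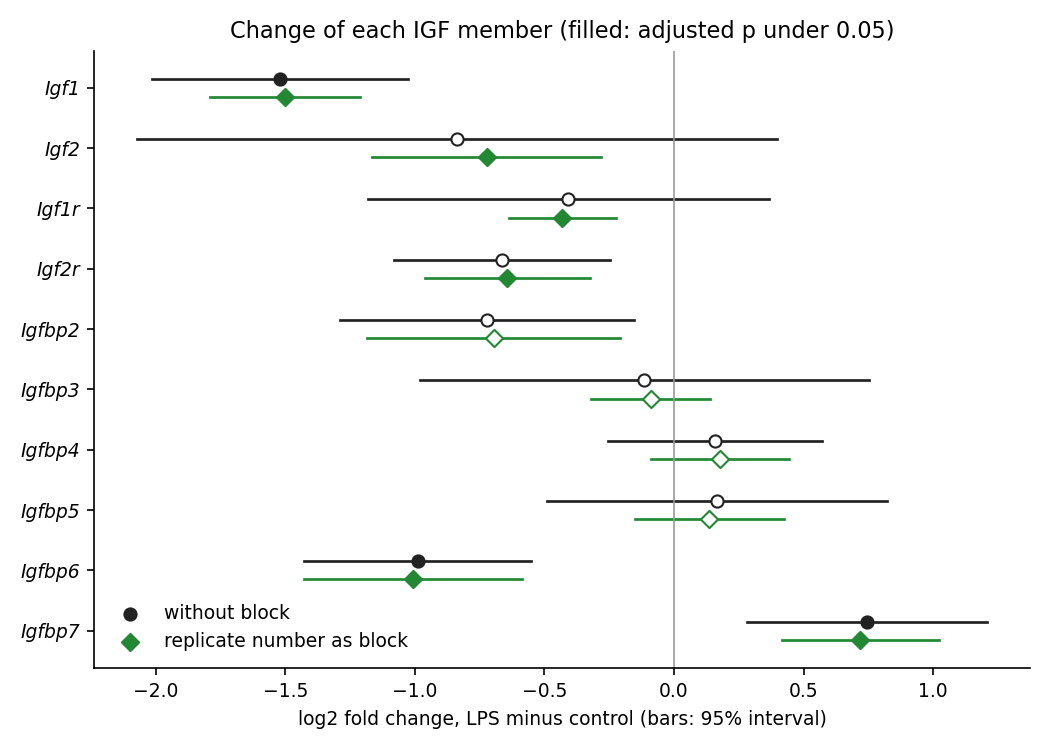
Log2 fold change (LPS minus control) of each IGF gene with its 95% interval in the edgeR fit without a block (black circles) and with the replicate number as a block (green diamonds), filled where the adjusted p is under 0.05. The estimates of the fits lie close together, and the narrower intervals with the block add Igf2, Igf1r and Igf2r to the calls.

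The libraries of replicate number 3 differed from numbers 1 and 2 in the same direction in both groups for 9 of the 10 members and for 71.7% of all tested genes. On the log2 scale, control 3 minus the mean of controls 1 and 2 was -1.68 for Igf2, -0.90 for Igfbp3, -0.70 for Igf1r, -0.54 for Igf2r and -0.52 for Igfbp5, and it was 0.56 for Igf1, 0.62 for Igfbp2 and 0.51 for Igfbp4. In the LPS group the same difference was -0.98 for Igf2, -0.81 for Igfbp3, -0.95 for Igf1r and -0.76 for Igfbp5, and 0.30 for Igf1. It was smaller for Igf2r (-0.12), Igfbp2 (0.15) and Igfbp4 (0.18). For Igfbp7 the difference was -0.17 in controls and -0.62 in the LPS group. Igfbp6 was the member with opposite signs, at -0.11 in controls and 0.55 in the LPS group. In each group the library with the highest macrophage marker sum thus had the least Igf2 and the most Igf1. The number 3 libraries also had the lowest marker sums for interstitial cells of Cajal. These were 202.5, 203.5 and 68.2 CPM in controls 1, 2 and 3 and 87.0, 78.4 and 50.5 CPM with LPS. Neuronal marker sums were lowest there as well (412.4, 409.8 and 243.9 CPM, then 380.6, 399.8 and 258.9 CPM). So were those of smooth muscle, while mesothelial sums were highest. The part of cell composition in these member values was not tested. Within numbers 1, 2 and 3 the Igf1 difference between LPS and control was -1.22, -1.61 and -1.67, so it was as large in the number 3 pair as in the others. For Igf2 it was -0.96, -0.95 and -0.25, for Igfbp6 -1.27, -1.19 and -0.57, and for Igfbp7 0.89, 0.85 and 0.42. These shifts had 1 sign in every pair and were smallest in number 3.

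Marker sums also moved with the treatment. Beside the counts below, edgeR called 6.71% of all tested genes lower and 9.09% higher. With the block these shares were 14.9% and 15.4%. The 7 smooth muscle markers were all called lower, with a summed level of 2290 to 2523 CPM in controls and 640 to 911 CPM in LPS cultures, and 2 of 15 cell cycle genes were called lower (559 to 1097 and 406 to 491 CPM), with 4 called lower with the block and 10 lower at an unadjusted p under 0.05 (16.0% of all tested genes). The count of cell cycle genes called lower was 0 without control replicates 1, 2 or 3 or LPS replicate 2, 1 without LPS replicate 1 and 3 without LPS replicate 3. Of 8 glial markers 1 was called higher and 1 lower (2 and 1 with the block), of 8 mesenchymal markers 2 were called higher, and of 11 tested macrophage markers 1 was called higher. With the block, 4 macrophage markers were called higher and 4 lower. Adgre1 was among the higher ones (159, 229.3 and 472.1 CPM in controls and 952.4, 1261 and 3700 CPM with LPS). Mrc1 was among the lower ones (197, 331.4 and 752.5 CPM in controls and 9.29, 10.4 and 131.3 CPM with LPS). The block also called 2 mesenchymal markers higher and 2 lower. The summed level of 5 mesothelial markers was 63.2 to 95.4 CPM in controls and 34.6 to 56.4 CPM with LPS, without overlap, with 1 called lower (Lrrn4) and 4 with the block. Of 3 markers of interstitial cells of Cajal, summing to 68.2 to 203.5 and 50.5 to 87.0 CPM, 1 was called lower (Kit) and 2 with the block. The part of smooth muscle, mesothelial, interstitial or dividing cells in the lower Igf1 and Igfbp6 was not tested.

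To compare levels between genes, CPM were divided by the length of each gene's exons in kb. In controls Igfbp7 (538 ± 36.5) and Igfbp3 (419 ± 160) led, followed by Igf2 (161 ± 83.3), Igf2r (74.2 ± 15.4), Igfbp4 (71.1 ± 15.7), Igfbp6 (49.6 ± 4.37), Igfbp5 (39.3 ± 7.70), Igf1 (28.2 ± 6.92), Igfbp2 (3.06 ± 0.82) and Igf1r (2.87 ± 0.74 CPM per kb). Ranges of neighbours in this order overlapped for Igfbp7 and Igfbp3, Igf2 and Igf2r, Igf2r and Igfbp4, Igfbp5 and Igf1, and Igfbp2 and Igf1r, so those neighbours did not differ beyond their spread between libraries. Within libraries, Igf2 was above Igf2r in 3 of 3 controls, and the order of the other overlapping pairs was not the same in every control. In LPS cultures Igfbp7 (901 ± 208) and Igfbp3 (387 ± 115) still led and their ranges were apart, Igf2 was at 90.1 ± 30.8, and Igf1 at 9.82 ± 1.31 CPM per kb kept rank 8. Igf2r and Igfbp4, Igfbp6 and Igfbp5, and Igfbp2 and Igf1r exchanged ranks by their means. LPS ranges of neighbours overlapped for Igf2 and Igfbp4, Igf2r and Igfbp5, Igfbp5 and Igfbp6, and Igf1r and Igfbp2, and Igf1r was above Igfbp2 in 2 of 3 libraries in each group. Igf1r was below Igfbp2 in control 3 and above it in controls 1 and 2. Per kb, Igf2r was 23.5-, 26.8- and 28.1-fold higher than Igf1r in controls 1, 2 and 3, and 19.3-, 18.0- and 33.2-fold higher in the LPS cultures.

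Carrier RNA outweighed ligand RNA in every library. The summed level of the 6 binding proteins was 1305, 1126 and 929 CPM per kb in controls and 1664, 1583 and 1069 in LPS cultures, and that of both ligands was 225, 242 and 101 and then 114, 120 and 66.0 CPM per kb. The ratio of carriers to ligands was 5.79, 4.66 and 9.20 in controls and 14.6, 13.2 and 16.2 with LPS, with no overlap between groups and a rise within each number of 2.52-, 2.84- and 1.76-fold. Without Igfbp7 the ratio was 3.29, 2.36 and 4.29 in controls and 5.47, 4.85 and 6.16 with LPS, again without overlap. These ratios combine genes picked with their results known and are given as a description, without a test. RNA levels do not show how much of each protein was secreted.

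The make-up of carrier RNA shifted towards Igfbp7. It formed 43.1, 49.3 and 53.4% of the summed carrier level in controls and 62.5, 63.3 and 61.9% in LPS cultures. Igfbp3 formed 44.6, 36.6 and 28.4% and then 28.7, 26.9 and 24.1%, and Igfbp6 4.18, 4.18 and 5.06% and then 1.36, 1.31 and 2.96%. Among the ligands Igf1 formed 9.90, 10.9 and 35.5% in controls and 8.39, 7.23 and 17.0% with LPS, so its share was lower in each pair, although both ligands were lower.

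**Figure D3:**
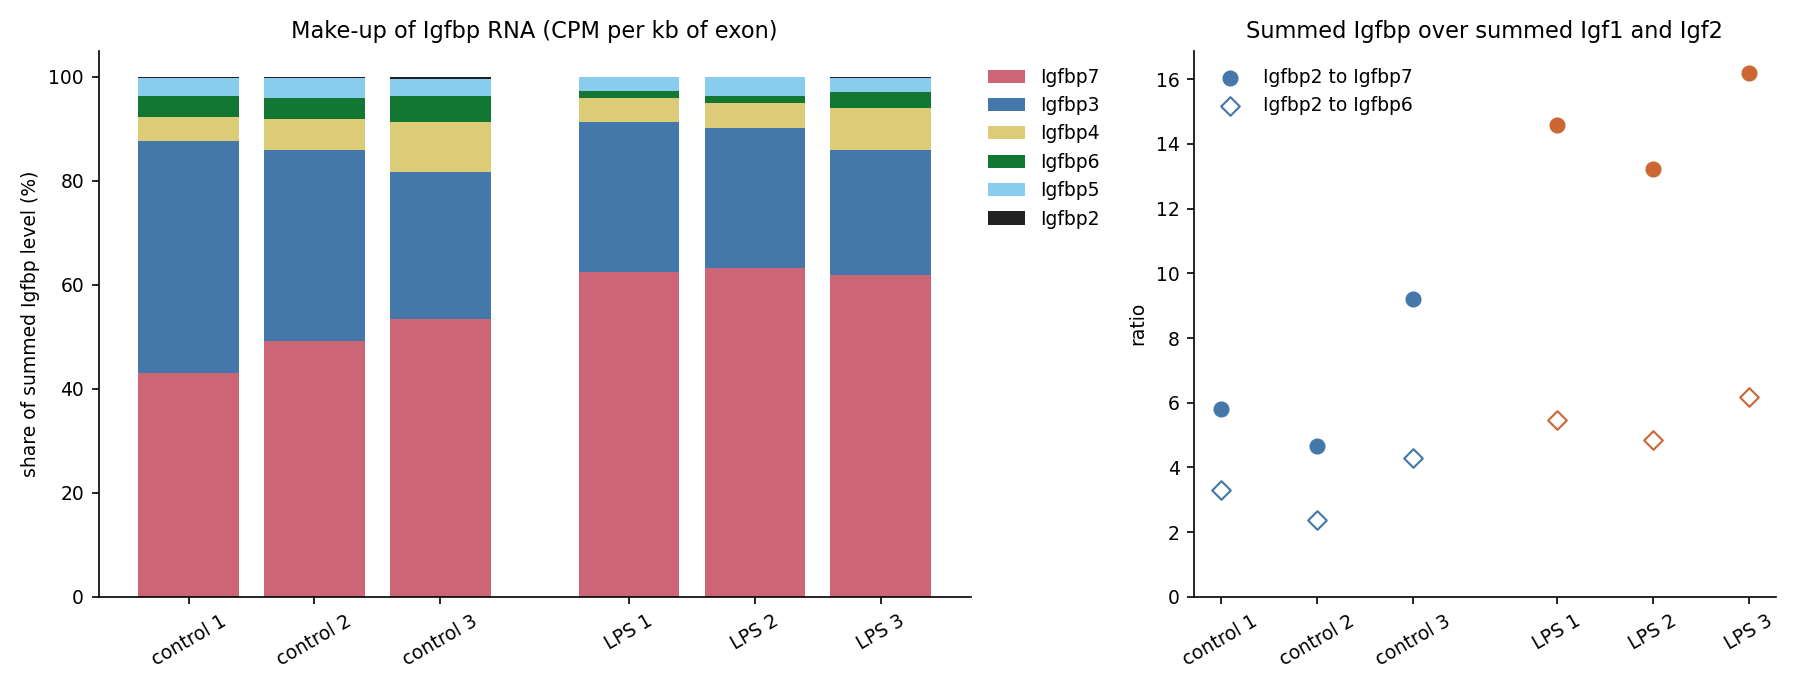
Left, share (%) of each binding protein in the summed Igfbp level (CPM per kb of exon) in each library. Right, ratio of summed Igfbp to summed Igf1 and Igf2 levels with Igfbp7 (circles) and without it (diamonds), where the LPS libraries (orange) lie above every control (blue) on both measures.

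Proteases that release IGF from its carriers, and their inhibitors, changed in both directions. Beside the list counts that follow, edgeR called 6.71% of all tested genes lower and 9.09% higher, and 14.9% and 15.4% with the block. At an unadjusted p under 0.05, 16.0% of all tested genes were lower and 16.1% higher, and DESeq2 called 11.0% lower and 13.7% higher. Of 7 genes 6 were tested, and 2 were called higher and 1 lower, with a median log2 fold change of 0.234. Pappa, which encodes the protease PAPP-A that cuts IGFBP4 and IGFBP5, held 121.5, 133.3 and 89.1 CPM in controls and 45.7, 53.6 and 45.6 CPM in LPS cultures, without overlap, and fell by 1.25 on the log2 scale (adjusted p = 0.00873). Stc1 and Stc2 encode stanniocalcins, secreted inhibitors of PAPP-A. Stc1 held 1.82, 1.82 and 1.53 CPM in controls and 44.7, 51.8 and 9.74 CPM with LPS (log2 fold change 4.36, adjusted p = 0.013), and Stc2 held 18.3, 19.4 and 20.8 CPM and then 47.2, 58.7 and 35.7 CPM (1.27, adjusted p = 0.0121). All LPS values of both stanniocalcins lay above all controls, with replicate 3 the least raised. Without control replicate 1, and likewise without control replicate 2, 0 genes of the list were called higher and 1 lower. The matrix proteases Htra1 (-0.42, adjusted p = 0.317, or 0.0147 with the block), Adam12 (-0.15, adjusted p = 0.508) and the PAPP-A relative Pappa2 (0.62, adjusted p = 0.271) were not called.

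Downstream of the receptor, 0 of 9 tested adaptors and inhibitors were called higher and 1 lower by edgeR, with a median of -0.10 (1 higher and 2 lower at an unadjusted p under 0.05, and 1 higher and 1 lower with DESeq2). That gene was Grb10, an imprinted adaptor that restrains insulin and IGF1 receptor signalling, at 600.9, 608.8 and 374.6 CPM in controls and 286.7, 275.8 and 178.5 CPM with LPS (-1.10, adjusted p = 0.0434). Its LPS values all lay below the controls, and the list had 0 calls in 5 of the 6 fits that left out 1 library, all but that without control replicate 3. The abundant adaptors Shc1 and Grb2 differed by 0.14 and -0.03 (adjusted p = 0.571 and 0.951). With the block 2 adaptors were called higher (Sh2b2 and Ptpn1) and 3 lower (Irs1, Grb10 and Grb14).

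In the PI3K-AKT branch 0 of 17 genes were called higher and 3 lower by edgeR, with a median of -0.03 (0 and 6 at an unadjusted p under 0.05, and 0 and 4 with DESeq2). These were the PI3K regulatory subunits Pik3r1 (95.3 ± 2.80 to 75.4 ± 3.70 CPM, -0.34, adjusted p = 0.0278) and Pik3r2 (87.3 ± 2.18 to 70.1 ± 2.52 CPM, -0.32, adjusted p = 0.0276) and the transcription factor Foxo1 (33.6 ± 3.31 to 22.8 ± 3.30 CPM, -0.56, adjusted p = 0.0454). The changes were small with little spread. Leaving out control replicates 1 or 2 or LPS replicates 1 or 2 left 0 calls in this list, and the block gave 1 higher and 5 lower. The lower count was also 0 without the low-count filter and 1 with the edgeR exact test. It was 6 with upper-quartile scaling and 6 with library size as the only scaling. Akt1, the kinase at the centre of the branch, differed by -0.20 (adjusted p = 0.13).

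Of the remaining ligands, carriers and receptors of the family, 5 of 7 were tested and 0 were called by edgeR, with or without the block, or by DESeq2. At an unadjusted p under 0.05 the count was also 0, and the smallest adjusted p was 0.252 without the block and 0.206 with it. The insulin receptor gene Insr was level, at 59.7 ± 5.74 CPM in controls and 60.0 ± 7.81 CPM with LPS (0.01, SE 0.12). Igfbp1 held 4.70, 3.19 and 0.703 CPM in controls and 5.93, 3.18 and 1.47 CPM with LPS, again lowest in replicate 3. Igfals, which encodes the acid-labile subunit of the circulating IGF complex, and Igfbpl1 were too low to test.

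Of 3 genes for proteins that bind Igf2 mRNA, Igf2bp2 was higher, at 94.4, 92.7 and 96.2 CPM in controls and 144.7, 139 and 114.6 CPM with LPS (0.49, adjusted p = 0.0302). Its groups did not overlap, and its call was lost in 5 of the 6 fits that left out 1 library, all but that without LPS replicate 3. The call was also lost with upper-quartile scaling, with library size as the only scaling and without the low-count filter. Igf2bp1 (0.21, adjusted p = 0.542) and Igf2bp3 (-0.09, adjusted p = 0.667) were not called.

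Imprinted genes that are expressed with Igf2 and H19 in embryonic tissues had the lowest median of the 9 lists around the IGF system, -1.02 over 10 tested genes, of which edgeR called 0 higher and 4 lower (0 and 7 at an unadjusted p under 0.05, and 0 and 6 with DESeq2). Cdkn1c, a cell cycle inhibitor, held 109.7, 128.6 and 31.7 CPM in controls and 12.0, 11.5 and 10.4 CPM with LPS (-2.995, adjusted p = 0.0186). Peg3, a zinc finger protein gene, averaged 81.6 ± 13.95 and 43.0 ± 4.19 CPM (-0.93, adjusted p = 0.015), and Mest 15.4 ± 5.21 and 6.57 ± 0.380 CPM (-1.23, adjusted p = 0.035). Grb10, given above, was the last of the 4. All 4 had LPS values below every control. Plagl1, a transcription factor gene that controls others of the network, held 82.3, 72.1 and 25.5 CPM and then 22.5, 22.7 and 18.4 CPM (-1.50, adjusted p = 0.0685, or 0.0331 with the block), and Meg3 differed by -0.63 (adjusted p = 0.109). With the block 8 of the 10 were called lower (14.9% of all tested genes). The list had 0 calls without control replicate 1, without control replicate 2 and without LPS replicate 1, and 6 without control replicate 3.

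On the growth hormone side, which induces Igf1 in liver through JAK2 and STAT5, 4 of 8 genes were called higher and 0 lower by edgeR, with a median of 0.708 (5 and 0 at an unadjusted p under 0.05 and with DESeq2). Jak2 rose from 54.7 ± 4.22 to 344 ± 114 CPM (2.65, adjusted p = 0.00371). The feedback inhibitors Socs1 (2.14 ± 0.258 to 18.3 ± 1.64 CPM, 3.09, adjusted p = 0.0003), Socs3 (28.04 ± 3.02 to 153 ± 34.3 CPM, 2.45, adjusted p = 0.00136) and Cish (7.51 ± 1.51 to 14.6 ± 1.25 CPM, 0.96, adjusted p = 0.0208) rose as well. These 4 genes also respond to cytokines. The growth hormone receptor gene Ghr (0.29, adjusted p = 0.6), Stat5b (0.01, adjusted p = 0.943) and Stat5a (0.45, adjusted p = 0.0675, or 0.0369 with the block) did not pass. Each fit that left out 1 library gave 3 or 4 higher calls in this list, and that without LPS replicate 3 also gave 1 lower call.

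Genes of mannose 6-phosphate sorting, the other task of IGF2R, gave 0 of 8 higher and 2 lower by edgeR, with a median of -0.06 (1 and 3 at an unadjusted p under 0.05, and 0 and 3 with DESeq2). Sort1, which encodes the sorting receptor sortilin, held 76.7, 87.4 and 70.2 CPM in controls and 39.6, 34.5 and 22.8 CPM with LPS (-1.27, adjusted p = 0.017), and the adaptor gene Gga2 averaged 100.7 ± 4.13 and 80.4 ± 5.78 CPM (-0.32, adjusted p = 0.0455). The smaller mannose 6-phosphate receptor gene M6pr held 191.8, 203.7 and 253.3 CPM and then 252.5, 287.9 and 450.0 CPM (0.61, adjusted p = 0.147, or 0.0197 with the block). It lay above its control in each pair, where Igf2r lay below. The list had 0 lower calls without control replicates 1 or 2 or LPS replicate 2.

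Of proteins that carry an IGFBP-like domain, 7 of 9 were tested and 0 were called in either direction by edgeR. At an unadjusted p under 0.05, 0 were higher and 2 lower, DESeq2 called 1 lower, and the block gave 3 lower (Nov, Kazald1 and Htra1). The abundant members Ctgf (739 ± 104 to 941 ± 237 CPM, 0.35, adjusted p = 0.326), Wisp1 (358 ± 75.1 to 298 ± 32.6 CPM, -0.27, adjusted p = 0.36) and Cyr61 (245 ± 51.6 to 305 ± 111 CPM, 0.32, adjusted p = 0.545), secreted matrix proteins, did not pass.

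**Figure D4:**
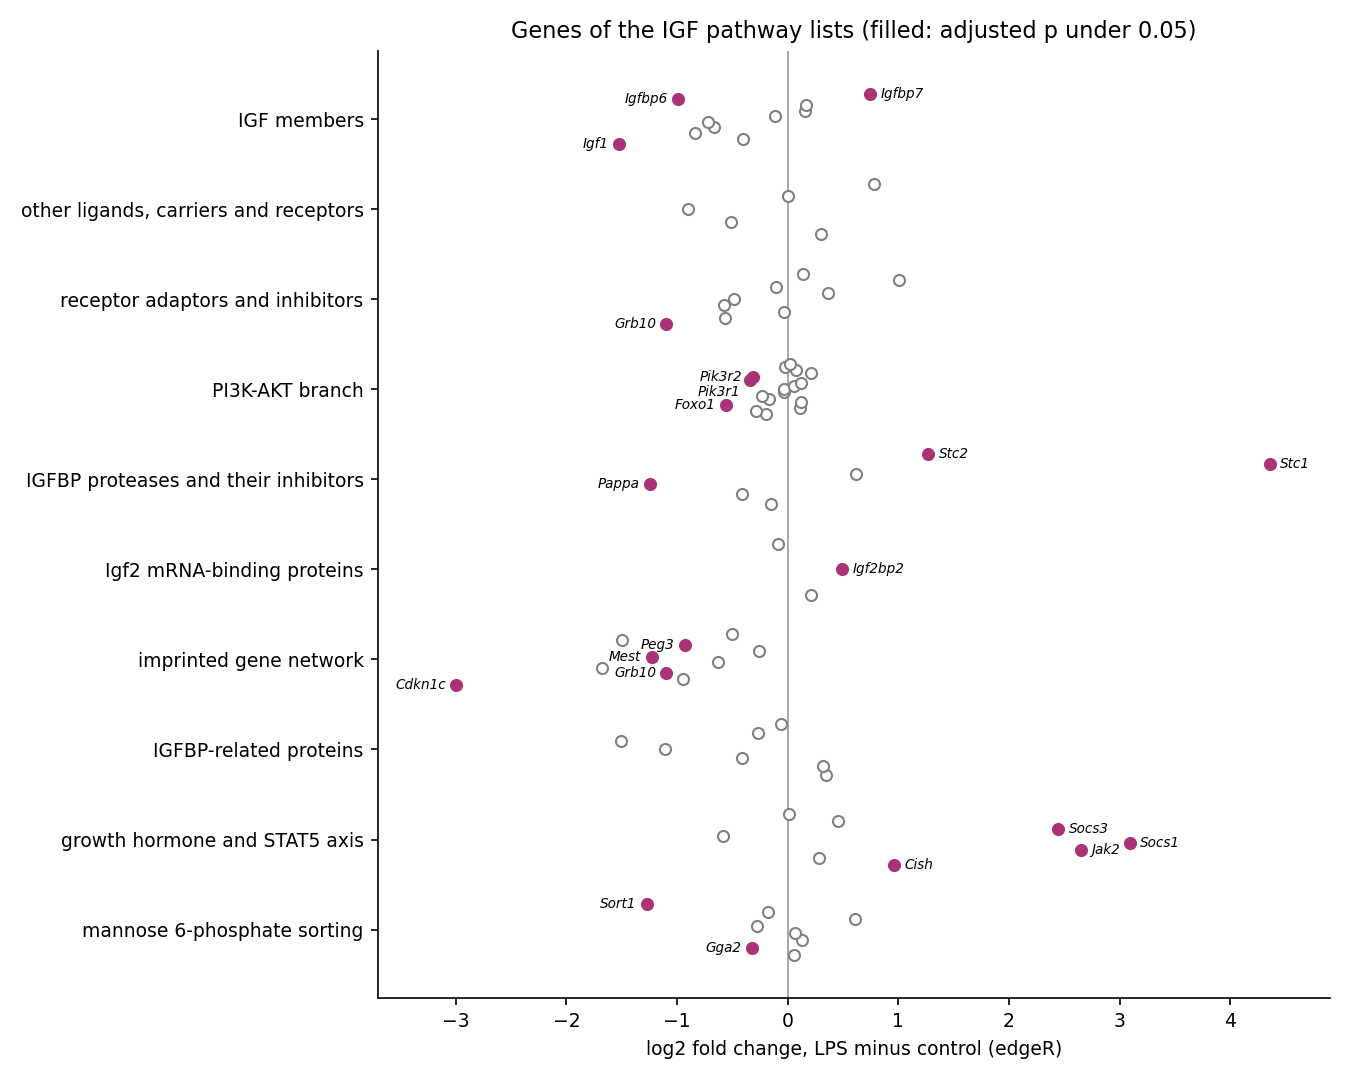
Log2 fold change (LPS minus control) of each tested gene of the IGF members and of 9 related gene lists, filled and named where the adjusted p is under 0.05. Stc1 at 4.36 and Cdkn1c at -2.995 are the ends of the range, and the imprinted network has the lowest median of the lists shown.

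For each member the gene with the most similar profile was sought among 9716 genes with a mean of at least 10 CPM, as the smallest root mean square difference of centred log2 levels over the 6 libraries. It was Gpnmb for Igf1 (0.0994), Nell2 for Igf2 (0.105), Apc2 for Igf1r (0.0475), Reck for Igf2r (0.0568) and Cblb for Igfbp2 (0.113). For the remaining carriers it was Tmc7 for Igfbp3 (0.0771), Chrac1 for Igfbp4 (0.0316), Rin3 for Igfbp5 (0.0812), Ank for Igfbp6 (0.0643) and Egfr for Igfbp7 (0.0543). Among the members, a far smaller pool whose distances are not comparable with these, the closest pairs were Igf1r with Igfbp3 (0.23) and Igfbp3 with Igfbp5 (0.261), and Igf1 and Igf2 differed by 0.948. These likenesses rest on 6 libraries that share treatment and replicate number.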

How the data were processed

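Poly(A) RNA of 6 EGC cultures was sequenced with a stranded kit. The deposited values are raw counts per gene, which the authors made, per the labels and their processing notes, after trimming (cutadapt 1.15), removal of contaminants (Bowtie2 2.3.3.1), alignment to GRCm38 (STAR 2.5.2b, SAMtools 1.5) and counting (featureCounts 1.5.3). The strand setting and the handling of reads with several alignments are not given in the sources used here, so genes that overlap on opposite strands or share sequence are uncertain. Groups were taken from the labels. No 2 libraries held identical values.

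Genes with low counts were removed (filterByExpr, minimum count 10, minimum total 15) and libraries scaled by TMM. LPS and control were compared with the two-sided edgeR quasi-likelihood test (edgeR 4.0.16, R 4.3.3) on all 15226 genes, with Benjamini-Hochberg adjustment and calls at an adjusted p under 0.05. Same-numbered control and LPS libraries deviated together from their group means (r = 0.513, 0.334 and 0.613 for numbers 1, 2 and 3), so the numbers were taken to pair the libraries. Crossed pairs of numbers 1 and 2 had r = 0.419 and 0.323, so that these pairs were not told apart and number 3 alone stood out. This pairing comes from the data, since the labels do not say what a number stands for, and the blocked value is given where it changes a call. Alternatives were other scalings and filters, DESeq2 1.42.0, the edgeR exact test, limma-voom (limma 3.58.1), the replicate block and leaving out each library. Scripts were tested on simulated data. Exon lengths came from GENCODE M21, which held 46005 of the 46603 identifiers.

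The members and gene lists were chosen with earlier results of these data known. All 10 members are named, and of each list the called genes and up to 3 others of highest level, with further genes named where the block called them or their role bears on a member. The nearest profile was sought on centred log2 CPM (prior count 2), leaving out members and predicted genes. Detection floors cover counting error only. Protein sequences were not used here.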

Additional observations from a re-analysis of the deposited data

How the results depend on the processing

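Igf1 was called lower in all 15 other settings tried and no member's direction reversed, except Igfbp3 without control replicate 1 and without LPS replicate 3, and Igfbp5 without LPS replicate 2. When 1 library was left out, the log2 fold change ranged from -0.3449 to 0.2074 for Igfbp3 and from -0.07004 to 0.3765 for Igfbp5. Of the member values under all alternatives, 129 kept direction and side of the threshold, 14 gained a call, 14 lost it and 3 reversed. The count of members called higher (1) was 0 without the low-count filter, with library size as the only scaling, with upper-quartile scaling, with at least 10 counts in every library, and limma-voom, and 0 to 1 when 1 library was left out. The count called lower (2) was 4 with library size as the only scaling, 5 with the replicate block and 1 to 3 when 1 library was left out. Without replicate number 3 in both groups, chosen after seeing the data, 2 members were higher and 5 lower. Over all genes, 1384 higher and 1022 lower calls became 2079 and 1673 with DESeq2, 2343 and 2273 with the replicate block, and 3498 and 3159 without number 3. Leaving out 1 library gave 379 to 1964 higher and 112 to 1426 lower calls. Lower calls were 1589 after upper-quartile scaling and 2054 after scaling by library size, which took the share of higher calls from 57.5% to 39.8% and 32.4% and the all-gene median of the log2 fold change from -0.02 to -0.124 and -0.175. In the order by level per kb, 6 members changed rank with the length of the longest transcript, and 4, 2 and 5 with control replicate 1, 2 or 3 by itself. The cause of these differences was not tested. With 3 libraries a group, the spread between libraries limited the calls of Igf2 and Igf1r without the block, and Igfbp2 rested on 61 to 178 counts.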
